A study of Tupaia belangeri with 6 samples.

Results

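GFAP-high astrocytes were examined in single-nucleus RNA sequencing of the hippocampus of naturally aged tree shrews (TSs, Tupaia belangeri). The 3 control libraries, labelled Normal, and the 3 libraries of Alzheimer's-like pathology (ALP), labelled AD, came from TSs of 1 aging cohort, which the study had assigned to ALP or control by how long they took in a pipeline maze. The sources name no transgene or drug for either group. The methods name tissue of 3 ALP and 3 control TSs, describe the controls as matched for age, and list sex among the covariates of 1 of the study's models. The labels give no animal or sex for a library, so p-values measure the spread between these 6 libraries, and sex could not be a term in the fits here. A GFAP-high astrocyte nucleus was defined as a barcode with at least 200 detected genes, at least 2 unique molecular identifiers (UMIs, each counting 1 captured RNA molecule) of AQP4, SLC1A3 and GJA1 together, at least 2 UMIs of GFAP, and none of MOG, PDGFRA, PTPRC, GAD1 or NEUROD6. The rule found 600 such nuclei among 37603, which was 1.60% of all nuclei. Without the GFAP condition the gate held 3592 astrocyte nuclei, so GFAP-high nuclei made up 16.7% of them. The other gated nuclei comprised 2379 with no GFAP UMI, called GFAP-negative below, and 613 with exactly 1.

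Astrocytes clear glutamate and potassium from the extracellular space, move water at the vessel wall through AQP4, and exchange metabolites with neurons. GFAP is the main intermediate filament protein of mature astrocytes, and its abundance varies with region, with fibrous or protoplasmic form and with reactivity. Reactive astrocytes enlarge and raise GFAP, vimentin (VIM) and a set of secreted and stress genes after injury and around amyloid deposits.

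The members were unevenly spread over the libraries. Control libraries 1 to 3 held 139, 81 and 115 members, and ALP libraries 1 to 3 held 32, 162 and 71. ALP 1 therefore contributed the fewest nuclei and 58636 member UMIs, against 145299 to 464981 from each other library. The median depth of a member was 2443, 2643 and 2241 UMIs in the controls and 1685.5, 1820 and 1764 UMIs in ALP, so every ALP library was shallower than every control library. Of 37437 distinct barcodes 166 occurred in more than 1 library, and no member shared its barcode with a member of another library. No doublet caller was run, and 43 members exceeded 2500 detected genes. The most abundant feature was the intergenic transcript LINC-FRMD8-1, which took 14.9, 22.5 and 22.4% of member UMIs in the controls and 30.4, 25.0 and 26.4% in ALP. Its share was higher in each ALP library than in any control library, and its part in the differences between the groups was not tested.

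GFAP itself, which chose the members, is given as a description. Of the 600 members, 263 held exactly 2 GFAP UMIs, 114 held 3 and 223 held 4 or more, and only 31 held 10 or more, with a maximum of 55. Members therefore ran in a continuous series from the 613 nuclei with 1 UMI just outside the threshold. Depth followed the GFAP count weakly, with medians of 2045 UMIs at 1 GFAP UMI, 1971 at exactly 2, 2210 at 4 or more and 3598 at 10 or more. At the other threshold, 52 members held exactly 2 UMIs of AQP4, SLC1A3 and GJA1 together, and 34 nuclei fell just outside with 1. As a background for free RNA, oligodendrocyte nuclei chosen by MOG and without the astrocyte genes carried at least 1 GFAP UMI in 1.01 to 3.70% of nuclei per library, at median depths of 1310 to 2110.5 UMIs, and at least 2 in 0 to 1.23%. Leaving out nuclei with any UMI of AQP4, SLC1A3 or GJA1 also leaves out some with free astrocyte RNA, so these shares may understate it.

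The label was checked against astrocyte markers that the rule did not use. Levels were compared with all nuclei outside the gate, as CPM, which are UMI counts scaled to the same total in every library. Of 15 such markers, 11 were higher in members than outside the gate in 6 of 6 libraries. SLC1A2, the main glutamate transporter, had a median over libraries of 693 CPM in members and 32.5 CPM outside. The growth factor receptor FGFR3 had 36.8 against 1.22 CPM, and the transcription factor SOX9 had 115 against 9.23 CPM. GPC5 stood at 210 against 172 CPM and was higher in 4 of 6 libraries, while ALDOC, S100B and PPP1R3C had 0 UMIs in members. Among the rule's own genes SLC1A3, the other astrocyte glutamate transporter, was present in 98.5% of members and the water channel AQP4 in 71.7%, whereas the gap junction gene GJA1 was present in only 6.67%.

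Markers of other classes were also present, some of them above their level outside the gate. The 8 ependymal markers summed to 613, 373 and 53.2 CPM in control members and 205, 144 and 613 CPM in ALP members. Outside the gate they summed to 85.7 to 119 CPM, below the members in each library except control 3, and in GFAP-negative nuclei to 134 to 409 CPM. Microglia markers outside the rule summed to 341 to 454 CPM in members and 73.9 to 138 CPM outside the gate. The 6 pan-neuron markers (SNAP25, SYT1, RBFOX3, RBFOX1, GRIN2B and STMN2) summed to 1369.9, 1752 and 2091 CPM in control members and to 290, 1496 and 523 CPM in ALP members. In GFAP-negative nuclei the same sum ran from 2557 to 3989 CPM. The 6 markers of oligodendrocyte precursors (OPCs) outside the rule summed to 161 to 206 CPM in control members, 0 to 170 CPM in ALP members and 594 to 1706 CPM in GFAP-negative nuclei. Outside the gate the OPC sum ran from 765 to 1464 CPM, so GFAP-negative nuclei held about as much. Their sum lay above the outside sum in control 1, control 2 and ALP 1 and below it in control 3, ALP 2 and ALP 3. The 4 choroid plexus markers reached 581 CPM in control 1 members and 11.5 to 193 CPM in members of the other libraries, and OTX2 had 0 UMIs. In GFAP-negative nuclei they summed to 786 CPM in control 1 and 10.3 to 53.7 CPM in the other libraries. Members thus carried less neuron and OPC signal than GFAP-negative nuclei of the same gate, and ALP 1 and ALP 3 members carried less neuron signal than any control members. Their part in the results below was not tested directly. Each main comparison was also made in a stricter gate, chosen after seeing the data, with at least 4 UMIs of AQP4, SLC1A3 and GJA1, at most 1 UMI of 7 further markers of other classes together, among them VCAN, CSF1R, FLT1, GAD2, SLC17A7 and SNAP25, and the study's limits of at most 2500 genes and 5% mitochondrial UMIs. There the pan-neuron sum, which includes the limited gene SNAP25, was 346 to 668 CPM in control members, 224 to 538 CPM in ALP members and 412 to 673 CPM in GFAP-negative nuclei. Choroid plexus markers there summed to 2142 CPM in GFAP-negative nuclei of control 1, against 6.76 to 36.3 CPM in the other libraries. In GFAP-high nuclei they summed to 161 CPM in control 1 and 0 to 32.1 CPM elsewhere. Ependymal markers there ran from 17.7 to 208 CPM in GFAP-high and 37.6 to 270 CPM in GFAP-negative nuclei. The part of these sums in the class comparison was not tested.

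**Figure D1:**
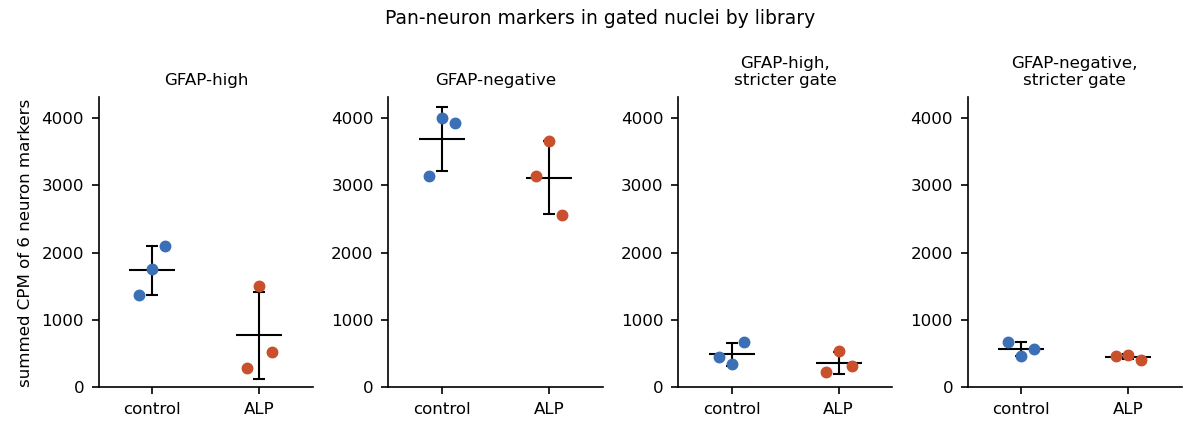
Summed CPM of 6 pan-neuron markers (vertical axis) in each library, in GFAP-high and GFAP-negative nuclei of the rule's gate and of the stricter gate. Points are libraries, black lines the mean ± SD of 3 libraries. GFAP-high nuclei lie below GFAP-negative nuclei in the rule's gate (1369.9 to 2091 CPM in controls against 3130.4 to 3989), and the classes lie closer in the stricter gate, which itself limits SNAP25, 1 of the 6 markers.

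The first question was whether GFAP-high nuclei were more or less frequent in ALP. Members were 1.58, 2.69 and 1.44% of all nuclei in the controls and 0.629, 2.27 and 1.27% in ALP. The groups overlapped, with means of 1.91% ± 0.683 (SD, n = 3) and 1.39% ± 0.825 (SD, n = 3), with an exact two-sided p = 0.4 when the libraries were permuted in all 20 ways, which cannot go below 0.1. Of the gated astrocyte nuclei, members were 19.6, 20.8 and 14.8% in the controls and 9.47, 20.1 and 12.4% in ALP (exact permutation p = 0.3). ALP 2 lay among the controls, and without it the ALP shares lay below all control shares. The mean difference was then -7.49 percentage points instead of -4.43 (exact permutation p = 0.2, the smallest that this test can give without ALP 2). When each gated nucleus was thinned to 1000 UMIs, leaving out 61 control and 80 ALP nuclei that were shallower, the expected share with at least 2 GFAP UMIs became 8.45, 8.07 and 6.07% in the controls and 5.15, 10.8 and 7.78% in ALP. The means were then 7.53% and 7.91%, in the opposite order to the unthinned shares (exact permutation p = 1). Thinning to 500 UMIs, which left out 0 nuclei, gave a difference of -0.144 percentage points. Thinning to 2000 UMIs gave -4.08 points (exact permutation p = 0.3), but left out 684 control and 1105 ALP nuclei and used 1191 and 612. Both differences kept the unthinned order, and the groups overlapped in both. No difference in the frequency of GFAP-high nuclei was detectable with these libraries.

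**Figure D2:**
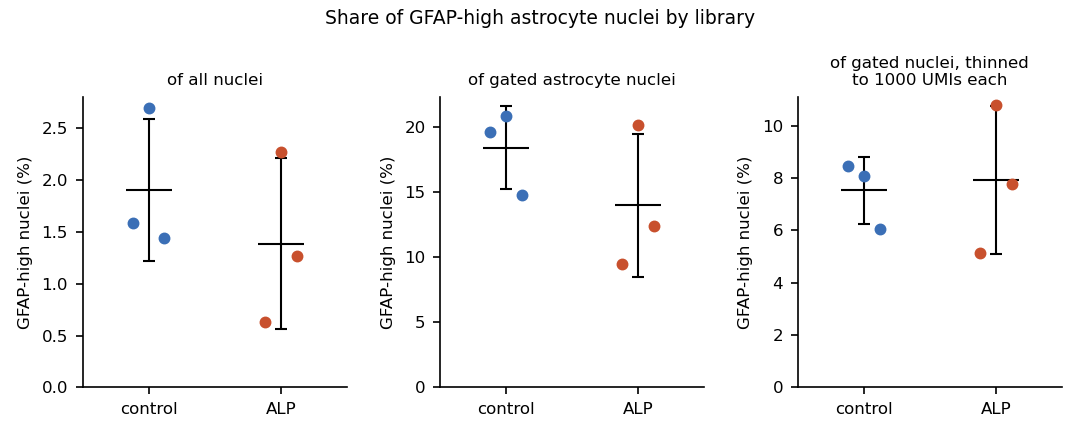
Share of GFAP-high astrocyte nuclei in each library (percent, vertical axis) among all nuclei, among gated astrocyte nuclei, and among gated nuclei thinned to 1000 UMIs each. Points are libraries, black lines the mean ± SD of 3 libraries. Groups overlap in each panel. The means are 18.4 and 13.99% of gated nuclei before thinning and 7.53 and 7.91% at 1000 UMIs. At 500 and 2000 UMIs, not plotted, the ALP mean is the lower one. Thinning to 2000 UMIs left out 684 control and 1105 ALP nuclei.

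GFAP was also compared without selecting on it, over all gated astrocyte nuclei. In that comparison 2 of 12819 features were called, both higher (0.0156%), and in GFAP-negative nuclei 1 of 11037, also higher (0.00906%). The log2 fold change of GFAP in ALP was 0.00 ± 0.23 (SE; edgeR adjusted p = 0.999), and leaving out 1 library at a time gave -0.19 to 0.22. Within members the log2 fold change was 0.54 ± 0.19 (SE), with 1463, 1561 and 1389 normalised CPM in the controls and 2180.5, 1912 and 2325.5 in ALP. This within-member value rests on nuclei chosen for their GFAP count at unequal depths, and is given without a test.

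GFAP-high nuclei were next compared with GFAP-negative nuclei of the same libraries, with the library as a term. CEBPD, PFKFB2 and CHI3L1 were among the genes higher in GFAP-high nuclei, and all 6 pan-neuron markers were lower. The mitochondrial share of UMIs was 0.305, 0.149 and 0.0846% in control members and 0.029, 0.0804 and 0.0977% in ALP members, against 0.0283 to 0.0465% in GFAP-negative nuclei. It was higher in members in each library except ALP 1, and its part in the differences was not tested. Of 7438 features tested apart from the rule genes, 942 were higher (12.7% of those tested) and 947 were lower (12.7%). In the stricter gate 93 of 4034 features were higher (2.31%) and 69 lower (1.71%). Of the 942 higher features, 742 were tested in the stricter gate, where 83 were also higher and 1 was lower. Of the 947 lower features, 425 were tested there, and 36 were also lower and 7 were higher.

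The largest rises included regulators and secreted proteins. CEBPD, a transcription factor of inflammatory and acute-phase responses, had 149, 88.6 and 51.6 normalised CPM in control members and 250, 231 and 352 in ALP members. In GFAP-negative nuclei of the same libraries it had 42.9, 14.1, 11.1, 44.3, 30.9 and 46.0. CEBPD was higher in 6 of 6 libraries, as were 9.64% of all features, while 14.1% were lower in 6 of 6. The log2 fold change was 2.48 ± 0.18 (SE; edgeR adjusted p = 7.05e-09), and the stricter gate gave 2.46 ± 0.23. PFKFB2, which makes the glycolytic activator fructose 2,6-bisphosphate, had 88.6 to 156 CPM in members and 14.7 to 26.6 CPM in GFAP-negative nuclei, without overlap between the classes. Its log2 fold change was 2.55 ± 0.19 (SE; edgeR adjusted p = 8.89e-09) and 2.33 ± 0.24 in the stricter gate. CHI3L1, the secreted glycoprotein YKL-40 of reactive astrocytes, had 157, 139 and 90.3 CPM in control members and 480, 318 and 743 in ALP members, against 25.0 to 94.0 CPM in GFAP-negative nuclei. Its log2 fold change was 2.23 ± 0.18 (SE; edgeR adjusted p = 3.16e-08), and 1.27 ± 0.19 in the stricter gate. CHI3L1 had a UMI in 33.7% of members, 12.4% of GFAP-negative nuclei and 1.38% of oligodendrocyte nuclei. For CEBPD these shares were 21.3, 6.599 and 6.19%, so that its presence in GFAP-negative nuclei was close to that in oligodendrocyte nuclei. Whether oligodendrocytes make CEBPD themselves was not tested.

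The other 7 of the 10 largest rises were of varied function. The metallothionein MT2 averaged 701 ± 428 CPM (SD, n = 6) in members and 170 ± 112 CPM in GFAP-negative nuclei, a log2 fold change of 2.12 ± 0.13 (SE; edgeR adjusted p = 5.69e-10). SNCG, gamma-synuclein, ranged from 115 to 832 CPM in members and from 46.7 to 81.1 CPM in GFAP-negative nuclei. S100A6, a calcium-binding protein, rose by 2.03 ± 0.18 on the log2 scale, DBI, which binds acyl-CoA esters, by 1.98 ± 0.18, and the tetraspanin TSPAN2 by 1.91 ± 0.17. Each of these 5 genes was also higher in the stricter gate, at log2 fold changes of 0.75 for S100A6, 1.05 for DBI, 1.28 for MT2, 1.68 for TSPAN2 and 1.72 for SNCG. CD74, the invariant chain of MHC class II, and IFITM2, an interferon-induced membrane protein, rose by 2.68 ± 0.32 and 2.18 ± 0.27 but were too low to be tested in the stricter gate. CD74 is a marker of microglia as well, and the 6 microglia markers outside the rule summed to 341 to 454 CPM in members against 200 to 308 CPM in GFAP-negative nuclei, while PTPRC was at 0 by the rule. Whether microglial RNA had a part in the CD74 value was not tested.

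The 10 largest falls in the rule's gate included markers of other cells. LHFPL3, PCDH15 and VCAN, all markers of OPCs, had log2 fold changes of -3.23, -2.94 and -2.63. LHFPL3 had 0 to 108 CPM in members and 314 to 938 CPM in GFAP-negative nuclei. ADARB2 and NXPH1, which are abundant in interneurons, had -3.20 and -3.08. STK32B, ITGA9, RAB27B, CALCRL and KCTD8 completed the 10 largest falls, at log2 fold changes of -3.65 to -2.67. In the stricter gate only LHFPL3 and ADARB2 of these 10 were abundant enough to be tested, and ADARB2 was still lower (-1.78 ± 0.31, edgeR adjusted p = 0.000101) while LHFPL3 was not called (-0.92 ± 0.32, edgeR adjusted p = 0.105). The OPC and neuron marker sums given above moved with these falls, and their part in them was not tested.

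Applied to the stricter gate, the naming rule gave another set of falls. LUZP2, a leucine zipper gene, averaged 1546 ± 406 CPM (SD, n = 6) without GFAP and 726 ± 164 CPM in GFAP-high nuclei, lower in 6 of 6 libraries (log2 fold change -1.09 ± 0.08, edgeR adjusted p = 1.72e-13). DPP10, a potassium channel subunit, fell by 1.19 ± 0.25, SEMA4A, a semaphorin, by 1.01 ± 0.22, and EFNA5, an ephrin ligand, by 0.79 ± 0.20. The receptor genes GRIN2A and GRM7 fell by 0.89 ± 0.26 and 0.86 ± 0.26, with averages of 77.0 and 88.6 CPM without GFAP. Rises by the same rule were led by CEBPD and PFKFB2, with TSPAN2, the small heat shock gene HSPB1 and the BMP effector SMAD9 among the others. SMAD9 averaged 69.4 ± 32.1 CPM without GFAP and 182 ± 54.9 CPM in GFAP-high nuclei (1.40 ± 0.19, edgeR adjusted p = 6.85e-07). The kinase DCLK1 was higher in the stricter gate (1.12 ± 0.22) but lower in the rule's gate (-0.56), and GRIK2 turned in the same way (0.57 and -1.04).

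**Figure D3:**
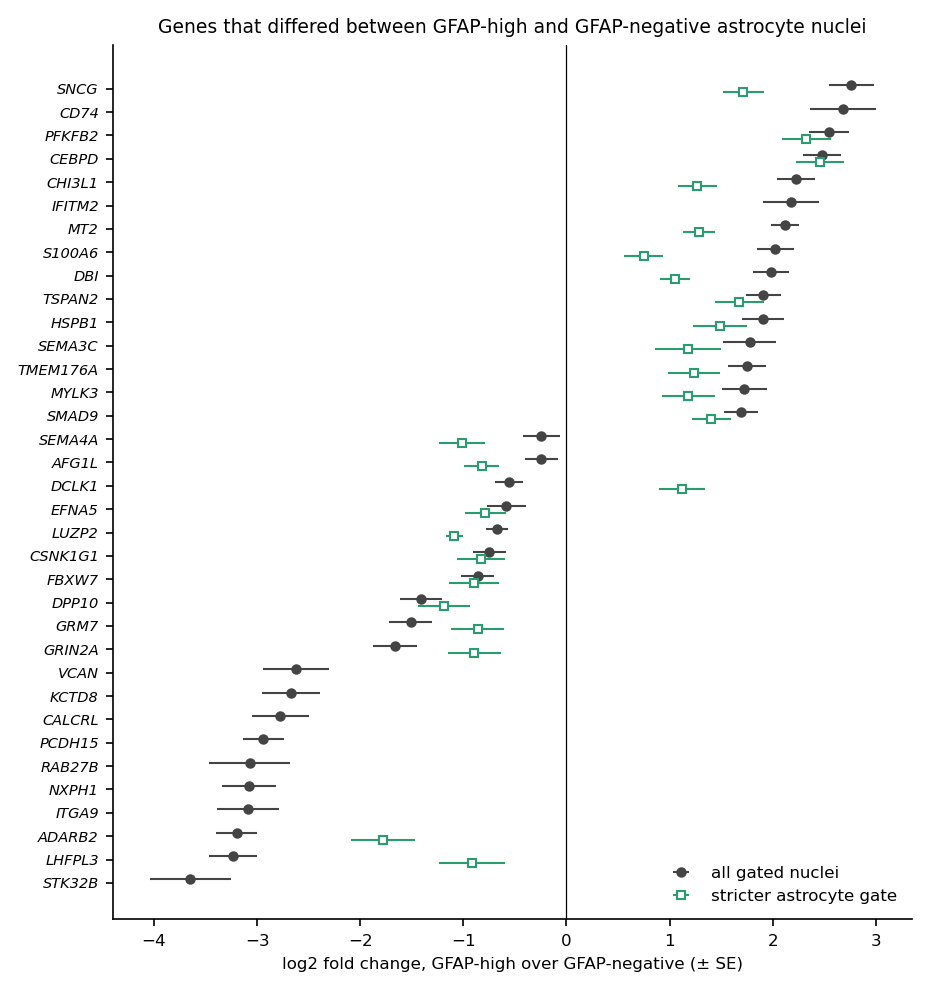
Log2 fold change of GFAP-high over GFAP-negative astrocyte nuclei (horizontal axis, ± SE) for genes among the largest changes in the rule's gate (filled circles) or in the stricter gate (open squares). Genes without a square were too low to be tested in the stricter gate. CEBPD and PFKFB2 lie above 2 in both gates, while DCLK1 lies on opposite sides of 0.

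Genes were then grouped by function. For each list, the count in the rule's gate is followed by that in the stricter gate, and the median over all features was 0.01 and -0.01 on the log2 scale in these gates. Of the pan-reactive list, 15 genes were measured and 3 besides GFAP were abundant enough to test, and CHI3L1, HSPB1 and VIM all rose in both gates. HSPB1 rose by 1.90 ± 0.20 and 1.49 ± 0.26, and VIM by 1.84 ± 0.17 and 0.60 ± 0.17. Of the inflammatory list 1 of 3 tested genes was higher, the MHC class I light chain B2M (1.15 ± 0.20, and 1.18 ± 0.19 in the stricter gate). Of the ischaemia-type list CD109 alone was tested, with 1.20 ± 0.15 and 0.42 ± 0.18, the latter not called. Of 12 genes tested of the fibrous and interlaminar list, 6 were higher and 3 lower, and in the stricter gate 2 of 7 were higher (DCLK1 and VIM) and 1 lower (DPP10). Of 12 of the protoplasmic list, 2 were higher and 2 lower. In the stricter gate 1 of these 12, the urea transporter SLC14A1, was higher and 5 were lower, among them WIF1 (-0.72), GPC5 (-0.70), GRM3 (-0.54) and TRPM3 (-0.38), with a list median of -0.24.

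The lists of astrocyte homeostasis behaved differently in the 2 gates. Glutamate, potassium and water handling had 11 of 16 tested genes higher and none lower in the rule's gate, among them KCNJ10, the inward rectifier of astrocytes (1.05 ± 0.18), and SLC1A2 (0.75 ± 0.13). In the stricter gate only 1 of 15 was higher, the glutamate dehydrogenase GLUD1 (0.56 ± 0.14), and SLC1A2 gave 0.02 ± 0.10 (edgeR adjusted p = 0.955). Astrocyte transcription factors had 12 of 20 higher in the rule's gate and none of 20 in the stricter gate, where RORA was lower (-0.37 ± 0.08). SOX9 gave 1.04 ± 0.16 and 0.11 ± 0.19. Astrocyte identity genes outside the rule had 7 of 12 higher and none lower, then none of 12 higher and GPC5 lower. The pan-neuron sum of GFAP-high nuclei lay below that of GFAP-negative nuclei in the rule's gate and close to it in the stricter gate. The stricter gate also asks for more UMIs of AQP4, SLC1A3 and GJA1. From the rule's gate to the stricter gate, identity markers outside the rule went from 2432 to 2981.5 CPM to 4132 to 5081 CPM in GFAP-negative nuclei. In GFAP-high nuclei they went from 3441 to 4482 CPM to 3879 to 5243 CPM. The part of either sum in this change of counts was not tested.

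Matrix, lipid and signalling lists kept some calls. In the extracellular matrix list 11 of 17 were higher and 2 lower, and in the stricter gate 6 of 14 were higher and 1 lower, with SPARC (0.77 ± 0.14), SPARCL1 (0.86 ± 0.11) and the proteoglycan BCAN (0.50 ± 0.13) next to CHI3L1. In the lipid and lipoprotein list 6 of 12 were higher, and DBI and the chaperone-like apolipoprotein CLU (1.63 ± 0.13, then 0.86 ± 0.10) were higher in both gates. In the glucose and glycogen list 5 of 12 were higher, and in the stricter gate PFKFB2 was higher and PDK4, which restrains pyruvate oxidation, lower (-1.01 ± 0.25). In the BMP, TGF-beta, FGF, WNT and NOTCH list 8 of 21 were higher, and in the stricter gate SMAD9 and ID4 (0.49 ± 0.13) were higher and the WNT inhibitor WIF1 lower. In the neural stem cell and radial glia list 7 of 11 were higher, and HOPX (1.36 ± 0.12, then 0.60 ± 0.11) and ID4 were higher in both gates. In the cell cycle and neuroblast list DCX and STMN2 were lower in the rule's gate, and no gene was abundant enough to test in the stricter gate. In the stress, metal and chaperone list 5 of 9 were higher, with HSPB1 and the brain metallothionein MT3 (1.20 ± 0.10, then 0.43 ± 0.07) higher in both gates. MT2, higher in both gates as given above, was not on this list.

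Synaptic adhesion and receptor genes leaned the other way. In the adhesion and synapse list 4 of 25 were higher and 12 lower in the rule's gate, and 1 and 5 of 25 in the stricter gate, where the protocadherin PCDH9 was among the lower genes. In the calcium signalling and receptor list 2 of 21 were higher and 9 lower, then 1 and 4 of 16, with the metabotropic glutamate receptors GRM5 (-0.49 ± 0.09) and GRM3 (-0.54 ± 0.08) both lower in the stricter gate. Of the cytoskeleton list 3 of 10 were higher, and VIM alone of 6 in the stricter gate. Genes associated with Alzheimer's disease in astrocytes had 7 of 14 higher and 3 lower, then 4 of 10 higher (CHI3L1, CLU, CST3 and ITM2B) and 1 lower (ERBB4). Of 5 tested genes that the study names in astrocytes, a list drawn from these samples and so not independent, 1 was higher and 3 lower, then 1 of 4 higher. Among the lists of other cells, all 6 pan-neuron and all 4 tested OPC markers were lower in the rule's gate, 1 of 2 oligodendrocyte, 1 of 4 excitatory and 1 of 1 inhibitory markers were lower, 2 of 2 microglia and 2 of 5 ependymal markers were higher, and no vascular or choroid plexus marker was called. No marker of these lists was called in the stricter gate, and no blood marker was among the features.

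The graded change with GFAP was described within the stricter gate, with no test, in 1268 nuclei with 0 GFAP UMIs, 382 with 1, 241 with 2 to 3 and 134 with 4 or more. CEBPD averaged 29.0, 43.3, 109 and 223 CPM over the 6 libraries in these classes. PFKFB2 averaged 24.6, 40.5, 79.9 and 196 CPM, and SMAD9 averaged 69.4, 102, 138 and 249 CPM. These 3 genes were above the level without GFAP in 6 of 6 libraries both at 2 to 3 UMIs and at 4 or more. VIM stood at 161, 171, 159 and 322 CPM, so that its rise was seen at 4 or more UMIs, where it was higher in 6 of 6 libraries, and not at 2 to 3, where it was higher in 3. In the other direction LUZP2 averaged 1546, 1072, 864 and 515 CPM and GRM3 1081, 930, 891 and 549 CPM, each lower in 6 of 6 libraries in both upper classes. SLC1A2 averaged 747, 738, 707 and 765 CPM, but the libraries went both ways. From 0 to 4 or more GFAP UMIs it went from 664, 711 and 793 to 923, 1007 and 903 CPM in the controls, and from 859, 617 and 840 to 492, 608 and 658 CPM in ALP. It was thus higher in the top class in each control library and lower in each ALP library, and this split was not tested. At 2 to 3 UMIs it was higher than at 0 in 4 of 6 libraries, among them ALP 2 (699 against 617 CPM). SLC1A2 was also not called in either gate by the test below of the ALP effect between the classes. Of the rule's own genes, AQP4 averaged 396, 531, 674 and 999.6 CPM and SLC1A3 3831, 3442, 3341 and 2795 CPM, in nuclei chosen on the sum of both. The top class held only 7 nuclei in ALP 1 and 17 to 38 in the other libraries, so single-library values there are coarse.

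**Figure D4:**
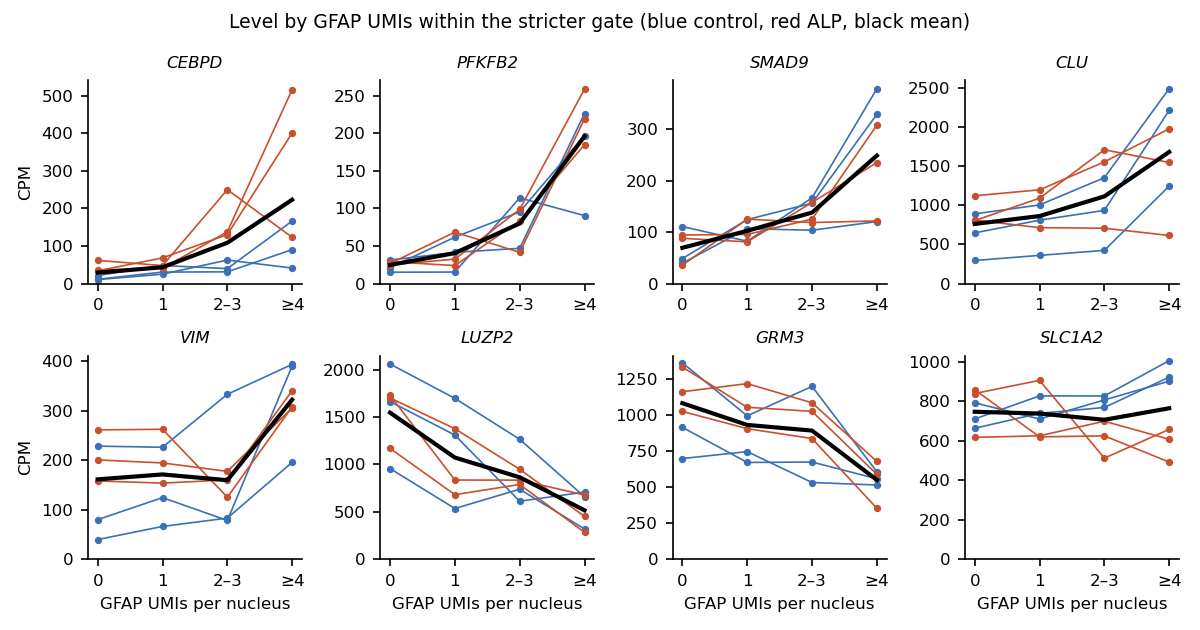
Level (CPM, vertical axes from 0) of 8 genes in nuclei of the stricter gate by GFAP UMIs per nucleus (horizontal axis: 0, 1, 2 to 3, 4 or more). Thin lines are the 6 libraries (blue control, red ALP) and the black line their mean. CEBPD, PFKFB2 and SMAD9 rise over the classes, VIM is higher at 4 or more, and LUZP2 and GRM3 fall. SLC1A2, with a mean between 707 and 765 CPM, ends higher in each control library and lower in each ALP library, which was not tested. At 2 to 3 UMIs SLC1A2 in ALP 2 lies above its level at 0.

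The comparison of ALP with control within GFAP-high nuclei asked which genes of these cells differed with pathology. None of 5312 features passed the threshold of edgeR (0% called), with 544 at an unadjusted p under 0.05 (10.2%), and DESeq2 called 17. In the stricter gate edgeR called 6 of 2452, all higher in ALP (0.245%), which were CEBPD, SLC14A1, EFEMP1, MT2, CHI3L1 and the intergenic feature LINC-MRPL42-8. Across all features, 16.9% had ALP values that did not overlap the control values, 8.02% higher and 8.89% lower in ALP, and non-overlap of single genes is to be read against these shares. Fewer nuclei of a kind and less RNA per nucleus cannot be told apart in summed counts.

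SLC14A1, a urea transporter of astrocytes, had the smallest p of any gene with a symbol. It had 715, 508 and 814 normalised CPM in control members and 2159.5, 1523 and 2085 in ALP members. The groups did not overlap, and the log2 fold change was 1.49 ± 0.23 (SE; edgeR adjusted p = 0.0625), or 1.17 in the stricter gate (edgeR adjusted p = 0.0239). Over its 16 alternatives it kept its direction in 16 and was called in 6, with adjusted p from 0.0002 to 0.6. The same gene gave 1.43 ± 0.30 in GFAP-negative nuclei of these libraries (edgeR adjusted p = 0.0603), and the difference of the ALP effect between the classes was 0.08 ± 0.21 (edgeR adjusted p = 0.985).

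CHI3L1 had 164, 149 and 98.2 CPM in control members and 524, 332 and 789 in ALP members. The groups did not overlap, and the log2 fold change was 1.96 ± 0.34 (SE; edgeR adjusted p = 0.103, and 0.0451 in the stricter gate). It was called in 6 of 16 alternatives. In GFAP-negative nuclei CHI3L1 gave 1.27 ± 0.30, and the difference between the classes was 0.64 ± 0.32 (edgeR adjusted p = 0.702). EFEMP1, the matrix protein fibulin-3, had 752, 628 and 442 CPM in controls and 2076, 1113 and 1719 in ALP (1.40 ± 0.27, edgeR adjusted p = 0.206, and 0.0252 in the stricter gate). In GFAP-negative nuclei EFEMP1 gave 1.36 ± 0.20, with a difference between the classes of 0.06 ± 0.21 (edgeR adjusted p = 0.988). For none of these 3 genes did the ALP effect pass a test of a difference between the classes.

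CEBPD and MT2 are given as genes called in the stricter gate. CEBPD had 156, 94.997 and 56.1 CPM in control members and 273, 241 and 374 in ALP members, a log2 fold change of 1.48 ± 0.36 (SE; edgeR adjusted p = 0.216), and 1.98 in the stricter gate (edgeR adjusted p = 0.0239). MT2 had 614, 475 and 207 CPM in controls and 839, 798 and 1545 in ALP (1.29 ± 0.36, edgeR adjusted p = 0.261, and 0.0436 in the stricter gate). Neither overlapped between the groups. In GFAP-negative nuclei CEBPD gave 0.85 ± 0.46 (edgeR adjusted p = 0.353) and MT2 gave 1.52 ± 0.38 (edgeR adjusted p = 0.0773). The difference between the classes was 0.73 ± 0.35 for CEBPD (edgeR adjusted p = 0.659) and -0.08 ± 0.24 for MT2 (edgeR adjusted p = 0.986). In nuclei of the stricter gate without GFAP, CEBPD had 21.2, 10.4 and 11.3 CPM in controls and 61.6, 33.7 and 36.0 in ALP, without overlap. Both, like CHI3L1, were also among the 10 largest rises with GFAP above. GFAP, which chose the members, stood at 1434, 1368 and 1171 unscaled CPM in control members and 1774, 1643 and 1927 in ALP members. The part of this unequal GFAP level in the ALP values of these genes was not tested.

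The other genes named by the rule on the higher side were not called by edgeR in either gate, while DESeq2 called SAT1 and RORB in the rule's gate. Over the alternatives SAT1 was called in 3 of 16, RORB in 1 of 16, TSPAN7 in 0 of 16 and LINC-ID4-15 in 5 of 15. TSPAN7, a tetraspanin, had 28.5, 20.7 and 31.6 CPM in controls and 83.9, 114 and 108 in ALP, from only 4 to 34 UMIs per library. SAT1, which acetylates polyamines, had 540, 867 and 561 CPM in controls and 2097, 1258 and 1345.5 in ALP. RORB, a nuclear receptor, had 373, 401 and 288 CPM in controls and 818, 684 and 673 in ALP. Their log2 fold changes were 1.94 ± 0.39, 1.24 ± 0.26 and 1.02 ± 0.23, with edgeR adjusted p of 0.206, 0.208 and 0.216. The intergenic LINC-ID4-15 had 32.9, 16.5 and 49.1 CPM in controls and 252, 184 and 166 in ALP (2.51 ± 0.39, edgeR adjusted p = 0.0625), and was called in GFAP-negative nuclei as well (2.15, edgeR adjusted p = 0.00709).

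**Figure D5:**
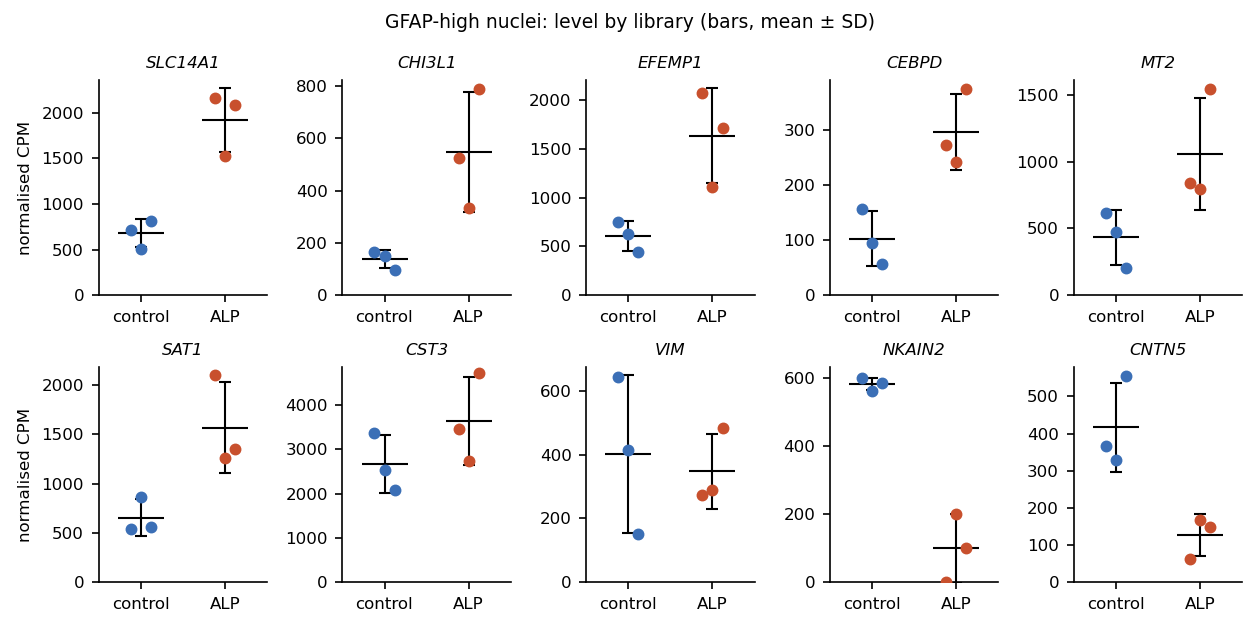
Normalised CPM in GFAP-high nuclei (vertical axes from 0) in the 3 control and 3 ALP libraries for 10 genes. Points are libraries and black lines the mean ± SD of 3 libraries. SLC14A1, CHI3L1, EFEMP1, CEBPD, MT2 and SAT1 lie higher in each ALP library, NKAIN2 and CNTN5 lower, and CST3 and VIM overlap.

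None of the genes named on the lower side was called by edgeR in either gate, while DESeq2 called NKAIN2 and CNTN5 in the rule's gate. Over the alternatives NKAIN2 was called in 4 of 16, CNTN5 in 2 of 16, and TMCC3, KCNT2, TNR and ABCB4 in 1 each. NKAIN2 had 599, 562 and 586 CPM in controls and 0, 201 and 99.7 in ALP, with 0 UMIs in ALP 1 (log2 fold change -2.16 ± 0.43, edgeR adjusted p = 0.206). CNTN5, a contactin of synapses, had 366, 330 and 554 CPM in controls and 62.9, 168 and 150 in ALP (-1.55 ± 0.33, edgeR adjusted p = 0.208). TMCC3, KCNT2, TNR and ABCB4 had values of -3.03, -1.90, -1.69 and -2.29, from 0 to 16 UMIs per ALP library. The pan-neuron marker sum moved in the same direction in ALP 1 and ALP 3 (290 and 523 CPM against 1369.9 to 2091 in the controls), and the excitatory neuron markers outside the rule summed to 277, 174 and 254 CPM in control members and 85.3, 161 and 103 CPM in ALP members, without overlap. Oligodendrocyte markers outside the rule summed to 327, 210 and 340 CPM in control members and 153, 104 and 268 CPM in ALP members, which overlapped. The part of these sums in the values was not tested. In the stricter gate NKAIN2 gave -1.85 (edgeR adjusted p = 0.193) and CNTN5 -1.17 (edgeR adjusted p = 0.593), and TMCC3, KCNT2, TNR and ABCB4 were too low to be tested.

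Structural and homeostatic genes of GFAP-high nuclei gave no edgeR call between the groups in either gate. VIM had 643, 413 and 151 CPM in controls and 273, 288 and 482 in ALP (-0.21 ± 0.42). CLU ranged from 996 to 2138.5 CPM in controls and from 1237 to 2018 in ALP (0.05 ± 0.28), and SLC1A2 from 715 to 901 and from 590 to 923 (-0.16 ± 0.23). HSPB1, among the strongest GFAP-associated genes, gave 0.04 ± 0.43. By list, 1 of 4 tested pan-reactive genes was called in the stricter gate (CHI3L1), as were 1 of 12 protoplasmic genes (SLC14A1) and 2 of 13 matrix genes (CHI3L1 and EFEMP1). None was called among the homeostatic (0 of 14), transcription factor (0 of 19), lipid (0 of 9) or adhesion (0 of 23) lists. The calcium and receptor (0 of 15) and stress, metal and chaperone (0 of 7) lists had no call either. The metallothionein MT2, called in the stricter gate, was not on the stress, metal and chaperone list. In the rule's gate edgeR called no member of any list, while the DESeq2 calls included SLC14A1, CHI3L1 and EFEMP1.

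A direct test asked whether the ALP effect differed between GFAP-high and GFAP-negative nuclei. Of 9158 features tested apart from the rule genes, 34 passed (0.371%), 1 with a higher (0.0109%) and 33 with a lower effect (0.36%) in GFAP-high nuclei. DESeq2 called 1, which was KCNIP4, and edgeR in the stricter gate called 1 of 5253 (0.019%). The call in the stricter gate was CST3, the secreted protease inhibitor cystatin C. CST3 had a UMI in 91.5% of members, 79.5% of GFAP-negative nuclei and 45.1% of oligodendrocyte nuclei. The part of free RNA in its values was not tested. CST3 had 3373, 2536 and 2094 CPM in control members and 3459.5, 2747 and 4717 in ALP members, which overlapped. In GFAP-negative nuclei it had 1020.1, 672 and 619.6 CPM in controls and 2501, 1369.5 and 2554 in ALP, which did not overlap. The log2 fold changes were 0.45 ± 0.24 and 1.53 ± 0.26, and their difference was -1.03 ± 0.18 (edgeR adjusted p = 0.0026), or -0.88 in the stricter gate (edgeR adjusted p = 0.0014). In controls CST3 was thus higher in GFAP-high than in GFAP-negative nuclei by more than in ALP. The other symbols with the smallest p were KCNIP4, ZNF804B, CNTN5 and NKAIN2, with differences of -2.06, -2.46, -1.65 and -1.67. KCNIP4 and CNTN5 are abundant in neurons, KCNIP4 gave -0.42 in the stricter gate (edgeR adjusted p = 0.996), and the pan-neuron sum fell off in the members of ALP 1 and ALP 3 while it ran from 2557 to 3649 CPM in ALP GFAP-negative nuclei.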

How the data were processed

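Nuclei were isolated from flash-frozen hippocampus and sequenced with the 10x Genomics 3′ v3.1 chemistry. The deposited matrices hold raw UMI counts per feature and nucleus, which the authors made with Cell Ranger (3.1.0 per the labels and methods, 6.1.2 per the file headers). The reference genome was one that the study downloaded from TreeshrewDB, its build is not given in the sources used here, and use of strand in counting is not given in the sources used here, so antisense features cannot be told apart from their partners. Libraries held 3011 to 8785 barcodes and 19182981 to 35898940 UMIs.

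Member counts were summed per library and tested with edgeR 4.0.16 (quasi-likelihood, TMM normalization, filterByExpr with a minimum count of 10, Benjamini-Hochberg adjustment) in R 4.3.3. A feature was called at an adjusted p under 0.05 and an absolute log2 fold change over 0.25. The class comparison had a library term and left out the 9 rule genes. Normalised CPM are TMM-scaled within each fit, whereas marker sums and GFAP classes use unscaled CPM. DESeq2 1.42.0, upper-quartile scaling, other thresholds and leaving out each library were alternatives. Shares were tested by exact permutation in scipy 1.17.1. Scripts were tested on simulated data with known changes of 1 and 2 on the log2 scale. The ALP comparison in members recovered 19 and 63% of them, and the test of the difference 15 and 68%. The class comparison recovered 79 and 92%. Changes without a call can thus have been missed. Members and lists were chosen with earlier results of these data known, and the stricter gate was chosen after seeing the data. Named genes were the 10 largest rises and falls of the class comparison among called symbols moving one way in 6 libraries, the 6 symbols of smallest p per direction without overlap for ALP, up to 5 interaction symbols, and list examples. The stricter gate was named by the same rule, and CEBPD and MT2 in ALP because they were called there. Features named as intergenic, antisense or numbered copies took 25.0, 5.62 and 8.11% of member UMIs, and reads of near-identical copies may be split. Intervals between libraries cover 3 libraries a group. Results for some genes are not reported here.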

Additional observations from a re-analysis of the deposited data

Results flagged for a closer look

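The effect of ALP differed between GFAP-high and GFAP-negative nuclei, by edgeR's test of the difference itself, for 5 named symbols. CST3 differed by -1.032 on the log2 scale, was called in 13 of its 16 alternatives, and was the 1 feature called in the stricter gate. KCNIP4 differed by -2.064, CNTN5 by -1.651 and NKAIN2 by -1.672, and ZNF804B by -2.456. Without ALP 1, from 32 members, CST3 was not called, while KCNIP4, ZNF804B, CNTN5 and NKAIN2 were. KCNIP4, NKAIN2 and ZNF804B had 0 UMIs in ALP 1 members, so their fitted differences depend on the prior count.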

How the results depend on the processing

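The labels give both groups the numbers 1 to 3, but same-numbered libraries did not deviate together (r = -0.012, -0.005 and -0.258), and a replicate block left 0 calls in ALP members, 67 for the difference between classes, and 0 in GFAP-negative and in all gated nuclei. Calls between ALP and control members (0) became 17 with DESeq2, 6 with further markers at most 1 UMI, 6 in the stricter gate, 7 under the study's limits and 81 without a count filter, and 0 to 40 leaving out 1 library, with 40 without ALP 2. Calls between classes (1889) became 1107 at 4 or more GFAP UMIs, 859 at 2000 to 8000 UMIs, 323 with further markers, 162 in the stricter gate, 614 under the study's limits and 933 without a library term, and 1439 to 1923 leaving out 1 library. Without a count filter they split into 541 higher and 1640 lower. Calls for the difference (34) became 1 with DESeq2, 12 at 4 or more GFAP UMIs, 1 at 2000 to 8000 UMIs, 1 with further markers, 1 in the stricter gate, 52 without a filter and 2 under the study's limits, and 7 (without ALP 1) to 126 (without ALP 2) leaving out 1 library. In GFAP-negative nuclei 1 call became 298 with DESeq2, 943 without a filter and 0 to 461 leaving out 1 library, and in all gated nuclei 2 became 324, 1035 and 0 to 305. The thinned share difference of 0.378 points was -0.144 at 500 UMIs and -1.07 to 1.76 leaving out 1 library. At 2000 UMIs, which left out 684 control and 1105 ALP nuclei, it was -4.08. Unthinned differences ranged from -0.956 to -0.125 of all nuclei and from -7.49 to -2.17 of gated nuclei. DCLK1 turned to 0.40 with further markers, 1.12 in the stricter gate and 0.26 under the study's limits, and GRIK2 to 0.57 in the stricter gate. The value for GFAP, ALP against control in all gated astrocyte nuclei, turned from 0.00 to -0.00547 with DESeq2, -0.0946 under the study's limits, -0.00483 with the block and -0.19 to 0.22 leaving out 1 library (-0.19 without control 3, -0.16 without ALP 2, -0.02 without ALP 3). The cause was not tested. ALP 1 held 32 members, the fewest of the 6 libraries.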
